A study of Mesocricetus auratus with 8 samples.

Results

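The genes described here encode the proteins of the cytosolic ribosome in skeletal muscle satellite cells (SCs) of the Syrian hamster. They were chosen by symbol, as every gene named Rpl or Rps followed by a number, Rplp followed by a number, or Rpsa, with the Rps6k kinases left out. The rule matched 81 entries, of which 80 had values, among 17590 genes with values in all. Of the 80, 41 encode proteins of the large subunit, 29 proteins of the small subunit and 3 proteins of the stalk. Another 5 are paralogs of such genes (Rpl3l, Rpl10l, Rpl22l1, Rpl36al and Rps27l). The remaining 2, Rps19bp1 and Rpl7l1, match the rule but were not taken as ribosomal proteins and are counted apart wherever a role is described. Rps24 was listed without values, and Rpl36a and Rpl41 were not analysed here.

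A cytosolic ribosome is assembled in the nucleolus from ribosomal RNA and these proteins, and the small subunit reads the mRNA while the large subunit joins amino acids. Their mRNAs are among the most abundant of a growing cell and most begin with a tract of pyrimidines (the TOP motif), through which mTORC1 and LARP1 set how well they are translated and kept stable. In muscle stem cells, ribosome production is low in quiescence and rises when the cells are activated and grow.

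SCs were isolated from hindlimb muscle of sexually mature male wild-type Slc:Syrian hamsters, enriched by repeated plating that removes fibroblasts, and grown on Matrigel in a serum-rich medium that keeps them proliferating. Control SCs (n = 4 libraries) were kept at 37°C for 48 h and then for 24 h in medium with 100 mM HEPES, and cold SCs (n = 4 libraries) were then exposed to 4°C for 24 h in that medium, so by this protocol the cold libraries were made 24 h after the controls. The titles place all controls on day 3, whereas their treatment labels name 3 days at 37°C for replicate 1, 4 for replicate 2, 5 for replicate 3 and 6 for replicate 4. If the titles hold, time in culture and cold exposure cannot be told apart, whereas by the treatment labels controls 2 to 4 were cultured as long as the cold SCs or longer. The question of the design is which mRNAs differ after cold exposure.

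Poly(A) RNA was sequenced, and the libraries held between 16530747 and 18533801 expected read counts. The study describes the 4 libraries of a group as biological replicates, and the sources used here do not say whether each came from its own animal or culture or what same-numbered libraries share, so the p-values measure the spread between these libraries. Levels are given as TPM, which scale transcripts by their length and by the total of each library and so give shares of the mRNA pool. In such bulk libraries less mRNA per cell and fewer cells of a type cannot be told apart, and a change of the whole mRNA pool is not seen. The labelled cell type was borne out by the myoblast markers Myod1 (614 TPM in control, 567 TPM in cold) and Des (829.5 and 783.8 TPM), whereas the stem cell marker Pax7 was low (12.7 and 13.5 TPM). The 10 SC and myoblast markers summed to between 2279 and 2672 TPM in control and between 2179 and 2523 TPM in cold libraries, the 7 fibroblast markers with values to between 1001 and 1517 TPM and between 987 and 1475 TPM, and the 5 endothelial markers to at most 3.95 TPM in any library. The macrophage and leukocyte list summed to between 40.9 and 104.7 TPM, almost all of it Cd68 and Cd14, with Ptprc and Adgre1 at or near 0, and the smooth muscle and pericyte list to between 64.7 and 93.6 TPM.

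The ribosomal protein mRNAs took up about the same share of the mRNA pool before and after cold exposure. Their summed TPM made up 21.2%, 21.3%, 20.9% and 20.9% of the pool in control libraries 1 to 4 and 21.2%, 21.3%, 21.1% and 21.8% in cold libraries 1 to 4. The mean was 21.05% ± 0.229 (SD, n = 4) in control and 21.34% ± 0.299 (SD, n = 4) in cold SCs, and the cold library was higher in 3 of 4 same-numbered pairs. The groups overlapped, and only cold library 4 lay above all 4 controls. Counted as reads, with no correction for length, the same genes took 6.3% ± 0.138 of the expected counts in control and 6.36% ± 0.132 in cold SCs (SD, n = 4). Of the 100 genes with the highest mean TPM, 62 were ribosomal protein genes by the rule.

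By subunit, the 41 large subunit genes made up 10.46% ± 0.0583 of the pool in control and 10.73% ± 0.165 in cold SCs (SD, n = 4), higher in cold in 4 of 4 pairs. The control libraries reached from 10.4% to 10.54% and the cold libraries from 10.55% to 10.95%, so that these groups did not overlap, although the gap between them was far smaller than the spread of the cold libraries. The 29 small subunit genes made up 8.867% ± 0.195 and 8.905% ± 0.112, higher in cold in 2 of 4 pairs. The 3 stalk genes made up 1.413% ± 0.0403 and 1.384% ± 0.0219, higher in cold in 1 of 4 pairs. The ratio of large to small subunit mRNA was 1.152, 1.166, 1.197 and 1.205 in control libraries 1 to 4 and 1.214, 1.203, 1.194 and 1.209 in cold libraries 1 to 4. It was higher in cold in 3 of 4 pairs, and the lower ratios were those of control replicates 1 and 2.

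The levels of most members were close to each other. Among the 73 genes of the large subunit, small subunit and stalk, 56 had a mean between 2000 and 5000 TPM, 4 stood above 5000 TPM, 4 lay between 1000 and 2000 TPM and 9 fell below 1000 TPM. At the top was Rplp1, a protein of the stalk that recruits elongation factors, whose mean was 6618 ± 195 TPM (SD, n = 4) in control SCs and 6484 ± 87.3 TPM after cold exposure. It was followed by Rps2, which lines the mRNA entry channel, with 5781 ± 234 TPM in control, by Rps12, a protein of the small subunit's beak, with 5593 ± 317 TPM, and by Rpl37a of the large subunit with 5261 ± 222 TPM. Rps20 and Rps29, both in the head of the small subunit, completed the top 6 with 4846 ± 443 and 4840.0 ± 161 TPM. The ranges of mean ± SD did not overlap between Rplp1 and Rps2, and they overlapped between each later neighbour of this order in control SCs.

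**Figure D1:**
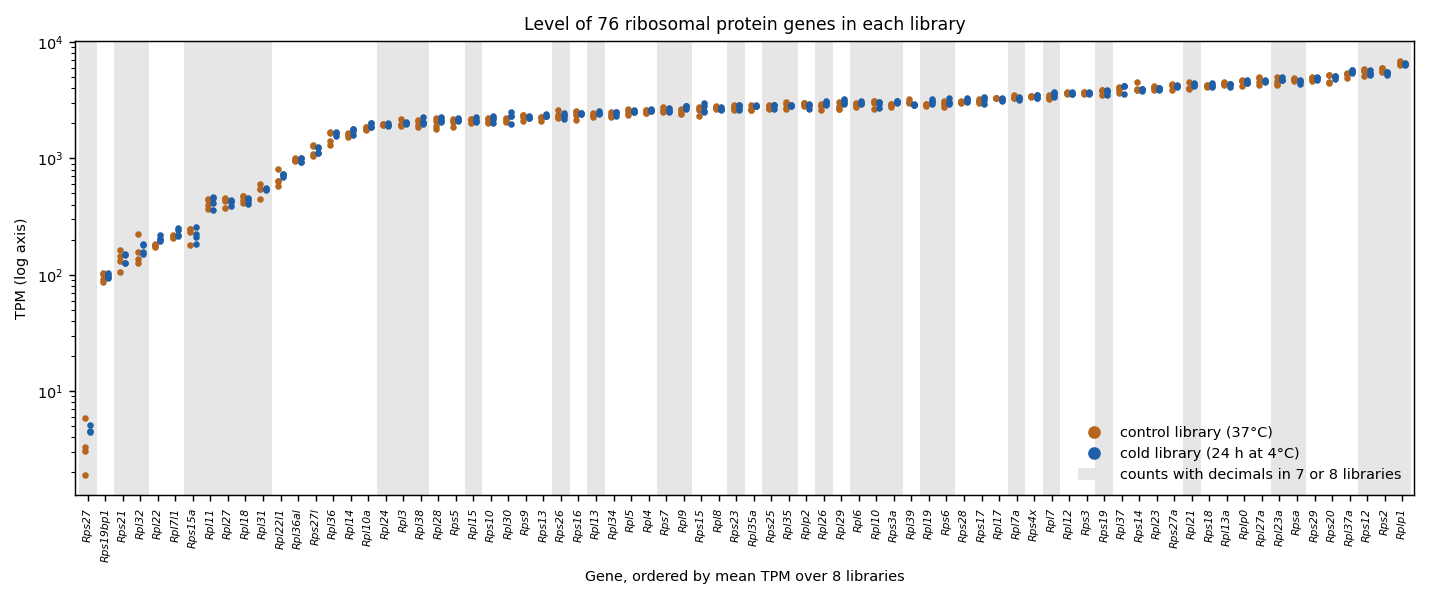
TPM of 76 ribosomal protein genes (log axis) in the 4 control (orange) and 4 cold (blue) libraries, ordered by mean TPM, with grey bands where the expected count had decimals in 7 or 8 libraries. Most genes form a plateau between 2000 and 5000 TPM with the groups on top of each other, and the grey bands cover most of the low end. Rpl3l and Rpl10l, at or near 0, and the value of 0 for Rps27 in cold replicate 1 are not drawn.

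The levels, most of all at the low end, have to be read with the counting in mind. An expected count with decimals can arise when reads are divided between genes, and where the decimals come from was not tested. Ribosomal protein genes have many near-identical processed copies in mammalian genomes. Decimals were found in all 8 libraries for 27 of the 80 members, in 1 to 7 libraries for 17 and in none for 36, so that 55.0% of members had a decimal in at least 1 library against 5.213% of all genes with values. Of the 9 core genes below 1000 TPM, 8 had decimals in at least 7 libraries (Rps27, Rps21, Rpl32, Rps15a, Rpl11, Rpl27, Rpl18 and Rpl31), against 26 of the 64 core genes at or above 1000 TPM. The exception was Rpl22, whose counts were whole in every library. Among the 100 genes of highest TPM were also 12 entries with a LOC number for a symbol, and 11 of these had decimals in at least 7 libraries. At the high end, Rplp1, Rps2, Rps12, Rpsa and Rps3a also had decimals in all 8 libraries, as had Rps6, Rps19, Rpl10 and Rps25. The levels of genes whose counts had decimals are given as uncertain, and this includes the order at the top. The part of such copies in the low values was not tested.

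No ribosomal protein gene passed the threshold that the study set for a changed gene, an adjusted p under 0.05 together with a log2 fold change of at least 1. By edgeR's quasi-likelihood test on the expected counts, with adjustment over all 12506 genes tested, 0 of the 77 members tested passed both, where 0.04% of all genes did. Without the fold threshold, 0 were lower (0.072% of all genes) and 0 were higher (0.0% of all genes), and the lowest adjusted p of a member was 0.445. At an unadjusted p under 0.05, 3 members were higher (Rpl22, Rpl29 and Rpl9; 2.57% of all genes) and 0 were lower (4.13% of all genes). DESeq2 called 0 members (1.02% of all genes lower and 0.0298% higher), and limma on log2 TPM 0 members (0.029% lower and 0.0% higher). The other 3 members (Rps27, Rpl10l and Rpl3l) had too few counts to be tested.

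The estimates were also small. The log2 fold changes of cold against control ran from −0.10 for Rps2 to 0.18 for Rpl22, with a median of 0.03 beside 0.01 over all genes tested. Of the 77 members, 31 (40.3%) lay below 0, against 47.1% of all genes. The 95% intervals of 66 members were inside ±0.25 and those of all 77 inside ±0.5, so a doubling or a halving of any tested member lay outside its interval. The direction of the median rests on few libraries, since it was −0.01 without control replicate 3, −0.00094 without cold replicate 2 and −0.02 in replicates 1 and 2 alone.

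Same-numbered libraries of the 2 groups deviated together across all genes, as did, less closely, replicate 1 with 2 and replicate 3 with 4, so the comparison was also made with the replicate number as a block. The median SE of the members' log2 fold changes was then 0.037 instead of 0.0602. Over the members alone, the deviations of same-numbered libraries correlated at −0.072, 0.15, 0.54 and −0.19. The SE of the blocked fit draws also on the spread of other genes. It need not match the spread of a member's own pairs. In that fit 0 members passed both thresholds (0.848% of all genes). Without the fold threshold, 3 members were higher in cold SCs (1.26% of all genes) and 0 were lower (4.07% of all genes), which changes the call from 0 to 3. At an unadjusted p under 0.05, 15 were higher (8.48% of all genes) and 3 were lower, namely Rps2, Rpl39 and Rpsa (9.76% of all genes). The log2 fold changes ran from −0.10 to 0.17, and the 95% intervals of 76 of 77 members were inside ±0.25.

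**Figure D2:**
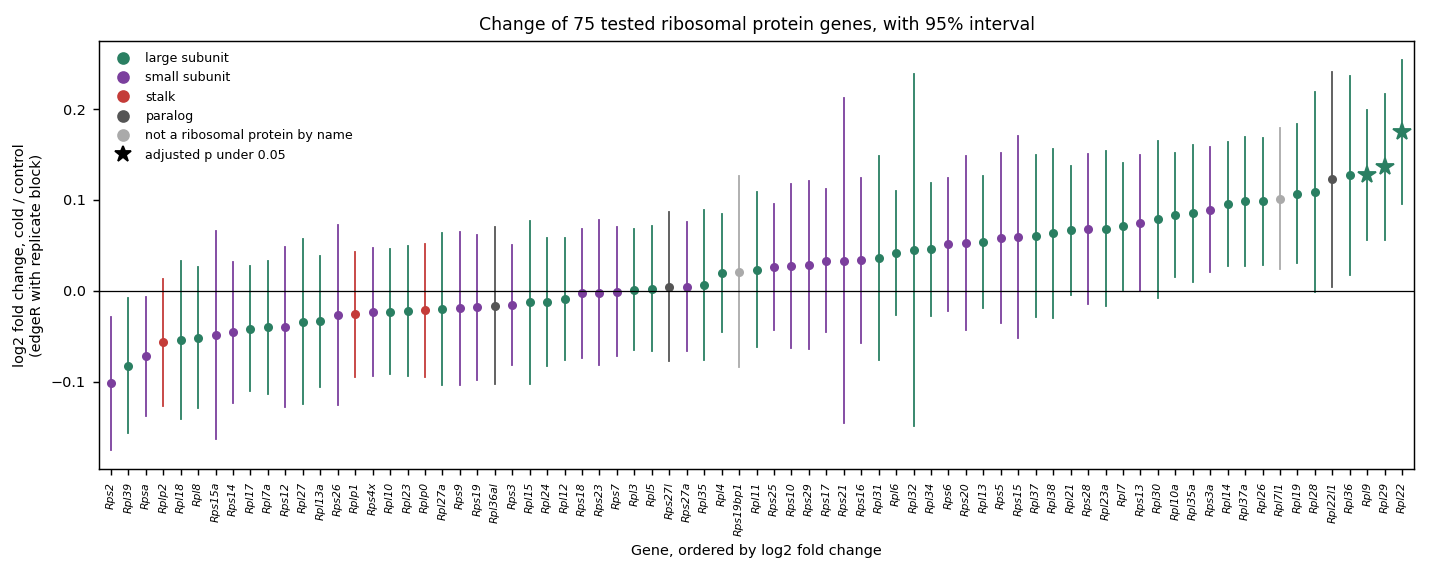
log2 fold change of cold against control for 75 of the 77 ribosomal protein genes tested, ordered by size, with 95% intervals from edgeR with a replicate block. Colours mark the subunit, and stars mark the 3 genes with an adjusted p under 0.05 (Rpl9, Rpl29 and Rpl22). All estimates lie between −0.10 and 0.17.

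The lowest adjusted p belonged to Rpl22, a large subunit protein that binds RNA and that many cells can do without. It stood at 174, 179, 176 and 185 TPM in control libraries 1 to 4 and at 218, 201, 197 and 201 TPM in cold libraries 1 to 4. Every cold library was above every control library. The means were 178.9 ± 4.77 and 204 ± 9.5 TPM (SD, n = 4), 14.2% higher in cold SCs. The exact permutation test gave p = 0.0286, the smallest value that 4 against 4 libraries can give. That value follows whenever the groups do not overlap, and it was not adjusted for the number of members. With the block, edgeR gave a log2 fold change of 0.17 (SE 0.0378, adjusted p = 0.00782), and without it 0.18 (SE 0.0529, adjusted p = 0.445). With a pair of libraries left out, the blocked edgeR fit gave adjusted p values of 0.03, 0.038 and 0.00756 without replicate 2, 3 and 4, but 0.0939 without replicate 1, where the difference was largest.

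Rpl9, a large subunit protein near the base of the stalk, was measured at 2407, 2645, 2452 and 2597 TPM in control and at 2795, 2794, 2674 and 2819 TPM in cold libraries 1 to 4. These groups did not overlap either, and the cold value was higher in 4 of 4 pairs. The log2 fold change with the block was 0.13 (edgeR, SE 0.0341, adjusted p = 0.0332), and the call was lost without replicate 1, 2 or 3 (adjusted p = 0.288, 0.07 and 0.131). In each of the 8 libraries its count had decimals.

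Rpl29, a large subunit protein also known as a heparin-binding protein of the cell surface, was measured at 2641, 2655, 3076 and 2801 TPM in control and at 2953, 3085, 3041 and 3230.3 TPM in cold libraries 1 to 4. The groups overlapped through control replicate 3, and the cold value was higher in 3 of 4 pairs. The log2 fold change with the block was 0.14 (edgeR, SE 0.0383, adjusted p = 0.0445), and it was called without replicate 3 (adjusted p = 0.0116) but not without replicate 1, 2 or 4 (adjusted p = 0.162, 0.341 and 0.0912). DESeq2 with the block called Rpl22 and Rpl9 but not Rpl29 (adjusted p = 0.076).

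The lowest estimates belonged to 2 small subunit proteins and 1 protein of the peptide exit tunnel. Rps2 was measured at 5979, 5988, 5569 and 5588 TPM in control and at 5447, 5498, 5227 and 5549 TPM in cold libraries 1 to 4. Every cold library lay below every control, with control replicate 3 and cold replicate 4 nearly level. Its log2 fold change was −0.10 in both edgeR fits (adjusted p = 0.902 without and 0.109 with the block), and it was called without replicate 4 in the blocked fit (log2 fold change −0.14, adjusted p = 0.00334). Rpl39, which lines the exit tunnel, was measured at 3044, 3063, 3005 and 3218 TPM in control and at 2859, 2945, 2903 and 2890.4 TPM in cold libraries. The groups did not overlap, but the log2 fold change of −0.08 was not called in either edgeR fit (adjusted p = 0.892 and 0.215). Rpsa, the small subunit protein also known as the laminin receptor precursor, went from 4780.0 ± 99.3 to 4588 ± 180 TPM (SD, n = 4), lower in 4 of 4 pairs and not called (edgeR, adjusted p = 0.219 with the block).

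**Figure D3:**
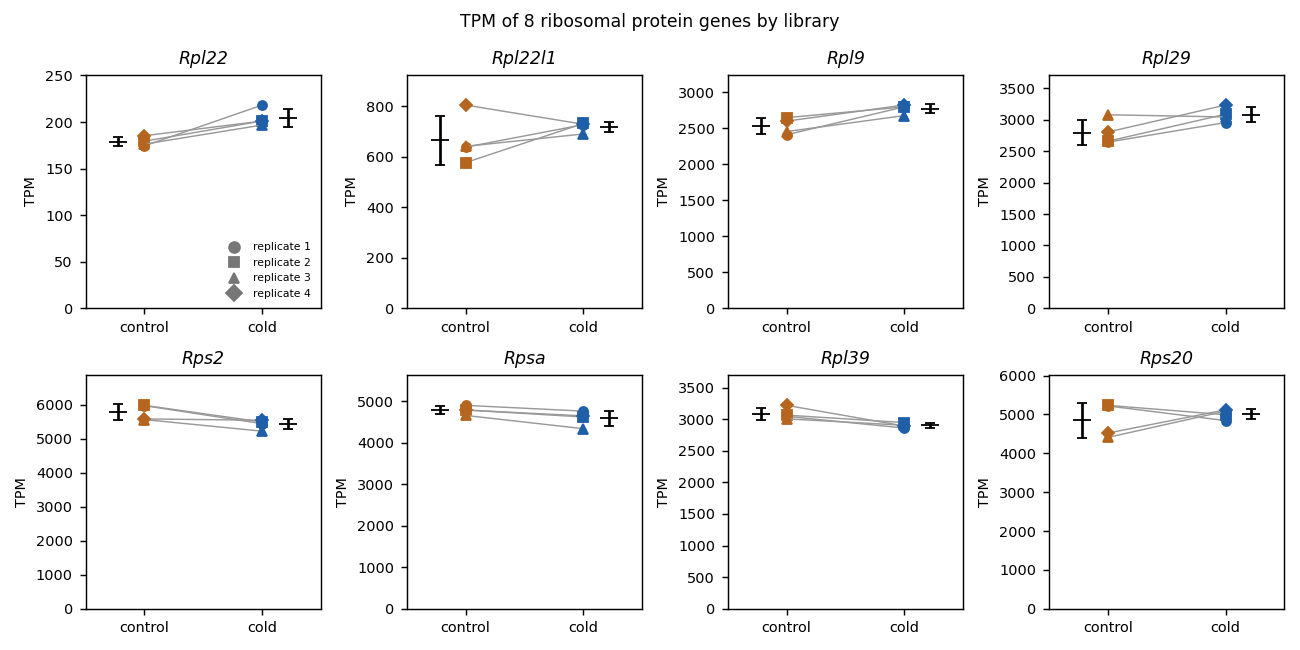
TPM of 8 ribosomal protein genes in the 4 control and 4 cold libraries, with symbols for the replicate number, grey lines joining libraries of the same number and black bars for mean ± SD (n = 4). The lines of Rpl22 and Rpl9 slope up in every pair and those of Rps2, Rpsa and Rpl39 slope down in every pair, whereas the lines of Rps20 cross.

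By TPM alone, the groups did not overlap for 6 of the 77 members, where 4.68% of all genes did not overlap. Rps2 and Rpl39 were lower, where 2.41% of all genes were, and Rpl22, Rpl9, Rps3a and Rps13 were higher, where 2.27% of all genes were. Rps3a, a small subunit protein near the mRNA exit, went from 2876 ± 81.2 to 3082 ± 53.9 TPM, and Rps13, a small subunit protein, from 2219 ± 76.5 to 2339 ± 54.9 TPM (SD, n = 4). Neither was called in edgeR with the block (adjusted p = 0.137 and 0.274), and both are named here because of their values. On the normalized counts that the authors deposited, the groups did not overlap for 1 of the 77 members, Rpl22, where 4.78% of all genes did not overlap. The cold value was higher in 4 of 4 pairs for 14 members (12.8% of all genes) and lower in 4 of 4 pairs for 4 members (Rps2, Rpsa, Rpl39 and Rplp2; 10.5% of all genes).

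The stalk proteins Rplp0, Rplp1 and Rplp2, which bind the elongation factors, had log2 fold changes of −0.02, −0.03 and −0.06 with intervals from −0.13 to 0.05 in the blocked edgeR fit. Rplp0, the base of the stalk, had 4557 ± 233 TPM before and 4528 ± 103 TPM after cold exposure. Rplp2 was at 2948 ± 90.3 and 2831 ± 108 TPM (SD, n = 4), lower in 4 of 4 pairs. None of the 3 was called.

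Paralogs and their parent genes stood at very different levels. Rpl3l, which replaces Rpl3 in the ribosomes of mature striated muscle, had 0 counts in all 8 libraries, which allows at most 3 counts or between 0.162 and 0.182 CPM (counts scaled by library size), a limit that covers counting error only. Rpl3, which lies at the peptidyl transferase centre, stood at 1997 ± 116 TPM before and 2017 ± 32.9 TPM after cold exposure (SD, n = 4), with decimals in its count in each of the 8 libraries. Rpl10l, a paralog known from testis, had between 0 and 2 counts, while Rpl10, among the last proteins to join the large subunit, was at 2974 ± 227 and 2942 ± 147 TPM.

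Rpl22l1, a paralog whose expression Rpl22 is known to repress in other cells, was measured at 638, 577, 641 and 804 TPM in control and at 727, 731, 690.05 and 729 TPM in cold libraries 1 to 4. By TPM the paralog thus stood above its parent, with a ratio to Rpl22 of 3.71 ± 0.467 in control and 3.52 ± 0.142 in cold SCs (SD, n = 4). Counts were whole for both genes. By expected counts, with no correction for length, the order was reversed, with 3763 to 5215 counts for Rpl22 and 2033 to 2896 for Rpl22l1. The order by TPM thus depends on the transcript lengths used. Control replicate 4 was the highest of all 8 libraries, and the other 3 controls were below every cold library. The log2 fold change was 0.12 in both edgeR fits (adjusted p = 0.99 without and 0.255 with the block). In the blocked fit it was 0.21 without replicate 4 (edgeR, adjusted p = 0.00796). It was 0.09, 0.04 and 0.13 without replicate 1, 2 and 3 (edgeR, adjusted p = 0.602, 0.843 and 0.371).

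For Rps27 the order was the opposite of the usual one, as Rps27, the parent, had between 0 and 12.45 counts per library and 3.54 ± 1.67 TPM in control SCs, whereas Rps27l, a paralog known as a p53 target, stood at 1180.0 ± 134 TPM before and 1180.0 ± 76.3 TPM after cold exposure (SD, n = 4). Counts of Rps27 had decimals in 7 libraries and those of Rps27l in 2, so the level of Rps27 and this order are uncertain. Rps27l had a log2 fold change of 0.00 in the blocked edgeR fit, with an interval from −0.08 to 0.09. Rpl36al was at 976.7 ± 26.9 and 965.8 ± 40.3 TPM, with an interval from −0.10 to 0.07, and its parent was not analysed here.

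Of 10 further members picked for a known regulatory or disease role or a place in late assembly, 0 were called in either edgeR fit, where 0.072% of all genes were lower and 0.0% higher without the block and 4.07% lower and 1.26% higher with it, so that 0 of 10 lies near the background. Rpl5 and Rpl11, which hold MDM2 when ribosome assembly is disturbed, had log2 fold changes of 0.00 and 0.02 in the blocked edgeR fit, with intervals from −0.07 to 0.07 and from −0.06 to 0.11. Rpl5 stood at 2528 ± 131 TPM before and 2550.0 ± 46.4 TPM after cold exposure, and Rpl11, whose counts had decimals, at 413.7 ± 35.1 and 423 ± 50.3 TPM. Rps6, the substrate of the S6 kinases, went from 2944 ± 139 to 3072 ± 153 TPM, with an interval from −0.02 to 0.12.

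Rps27a, made as a fusion with ubiquitin, was at 4197 ± 215 and 4211 ± 59.8 TPM, and Rps3, which also acts in DNA repair, at 3656 ± 78.2 and 3642 ± 67.7 TPM (SD, n = 4). Both had intervals within ±0.09 in the blocked edgeR fit. Rps19, the gene most often mutated in Diamond-Blackfan anaemia, had a log2 fold change of −0.02, Rpl13a, which can leave the ribosome to silence inflammatory mRNAs, −0.03, and Rpl10 −0.02. Rpl38, known for the translation of Hox mRNAs in mouse embryos, was at 0.06 and Rps25, needed for translation from some internal entry sites, at 0.03. These 5 had intervals inside ±0.16.

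Other members with the highest estimates were Rpl19, Rpl28 and Rpl36 of the large subunit and Rpl7l1, an assembly factor rather than a ribosomal protein. Their log2 fold changes were between 0.10 and 0.13 with the block, and none was called. With a pair of libraries left out, that of Rpl28 ran from 0.03 (without replicate 4) to 0.18 (without replicate 2). Rpl36 was measured at 1684, 1653, 1402 and 1313 TPM in control and at 1564, 1660.2, 1643 and 1685 TPM in cold libraries 1 to 4. Its cold libraries were alike while its controls spread from low values in replicates 3 and 4 to high values in replicates 1 and 2. Rpl36 was called in the blocked edgeR fit without replicate 1 (log2 fold change 0.18, adjusted p = 0.0364). Its log2 fold change was 0.16, 0.09 and 0.06 without replicate 2, 3 and 4 (edgeR, adjusted p = 0.259, 0.521 and 0.551). At the low end, Rpl8, Rpl18, Rps14 and Rps15a had log2 fold changes of about −0.05, and Rplp2 of −0.06, none of them called.

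Several members had estimates of opposite sign in different pairs of libraries. When only replicates 1 and 2 were fitted with the block, 14 members were lower (9.43% of all genes) and 12 higher (7.72% of all genes) in edgeR. When only replicates 3 and 4 were fitted, 0 were lower (2.29% of all genes) and 7 were higher (0.659% of all genes). Each of these fits had 2 libraries per group, so its adjusted p-values rest largely on spread pooled over genes. Of the 4 members called in both, 0 had the same direction, while of the 282 genes called in both over all genes, 268 had the same direction. Of the 26 members called in replicates 1 and 2, 13 had the opposite sign in replicates 3 and 4 and 13 the same sign, and over all genes called there 26.1% had the opposite sign. The difference between the replicates was not tested, and apart from the treatment labels, which give controls 1 and 2 as 3 and 4 days at 37°C and controls 3 and 4 as 5 and 6 days, what a replicate number marks is not given in the sources used here. Marker lists also separated these libraries, in control and cold alike. The fibroblast list summed to between 986.8 and 1062 TPM in replicates 1 and 2 and to between 1323 and 1517 TPM in replicates 3 and 4, and the macrophage and leukocyte list to between 40.9 and 49.5 TPM and between 75.3 and 104.7 TPM. Myf5, a myoblast marker named for its values, stood between 99.9 and 120.8 TPM in replicates 1 and 2 and between 179.5 and 205.5 TPM in replicates 3 and 4, whereas the sums of the SC and myoblast list overlapped (2358 to 2672 and 2179 to 2439 TPM). The part of these markers and of the days in the opposite signs was not tested.

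The members called both times included Rps20 and Rps15, which are described here because of their values. Rps20 was measured at 5220, 5235, 4408 and 4520 TPM in control and at 4842, 4993, 5086 and 5120 TPM in cold libraries 1 to 4. Its log2 fold change was −0.09 in replicates 1 and 2 (edgeR, adjusted p = 0.0269) and 0.19 in replicates 3 and 4 (edgeR, adjusted p = 0.00425). Both fits had only 2 libraries per group, and the cold libraries lay within the range of the controls. Rps15, near the decoding site, gave −0.12 and 0.23 in the same fits (adjusted p = 0.017 and 0.000245). In all, 10 members were lower in pairs 1 and 2 and higher in pairs 3 and 4, a pattern found in 4.05% of all genes, and 4 members (Rpl27a, Rps14, Rpl5 and Rps27l) showed the reverse, found in 10.5% of all genes.

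**Figure D4:**
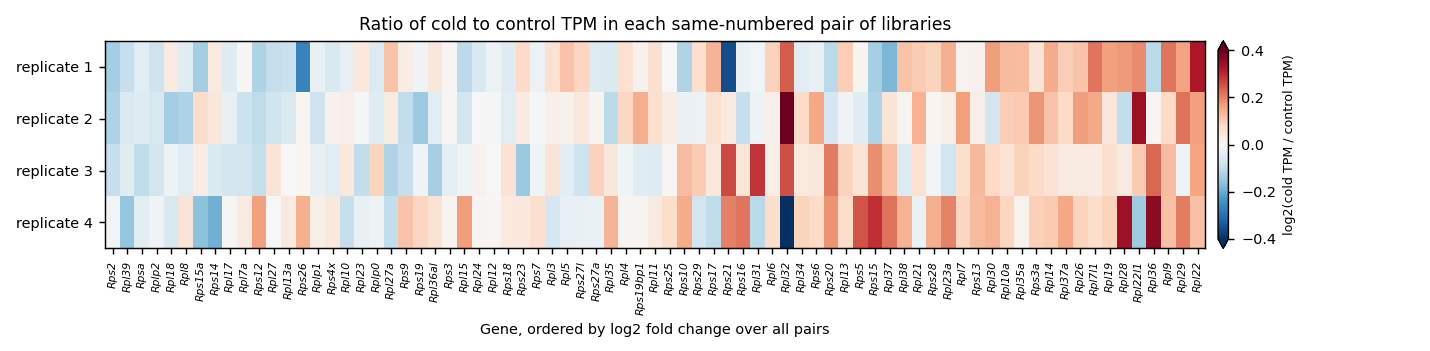
log2 ratio of cold to control TPM in each pair of libraries with the same replicate number (rows) for 75 of the 77 ribosomal protein genes tested (columns, ordered by the log2 fold change over all pairs). Red is higher and blue lower in cold, and of the 77 genes tested 14 are higher and 4 lower in all 4 rows. The median over all 77 was 0.01, 0.01, 0.03 and 0.06 for replicates 1 to 4.

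Members varied little between libraries of a group. The median coefficient of variation of TPM was 4.5% in control and 3.37% in cold SCs, beside 10.4% and 8.88% over all genes tested and 6.06% and 4.85% over the 85 other genes with at least 1000 TPM. The lowest in control was that of Rpl17 (0.476%), and the highest among the members tested that of Rpl32 (27.5%), a gene whose counts had decimals and with 226 TPM in control replicate 4 against 127 to 156 TPM in the other controls. The median correlation between 2 members of their deviations from the group means over the 8 libraries was 0.1, and 57.4% of member pairs had a correlation above 0. The leading 3 principal components of the log2 TPM of the members tested held 32.8%, 29.1% and 16.1% of their variance. These values describe libraries that share their depth and scaling and carry no test.

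The other genes of the translation machinery, taken from lists chosen by function, had estimates of similar size. Their counts of calls stand beside 1.26% of all genes higher and 4.07% lower in the blocked edgeR fit, in which 46.9% of all genes lay below 0. Fau, a ribosomal protein made as a fusion with a ubiquitin-like protein, and Rack1, a scaffold on the small subunit, had log2 fold changes of −0.04 and −0.05 in the blocked edgeR fit, neither called. Of 76 mitochondrial ribosomal protein genes 0 were called in either direction (median 0.00), and their share of the pool was 0.802% ± 0.0027 in control and 0.808% ± 0.013 in cold SCs (SD, n = 4). The largest estimate was −0.15 for Mrps24. Of 11 elongation factors 0 were called (median 0.00, with Eif5a2 the farthest at 0.10), and of 35 initiation factors 1 was higher (median 0.03), Eif3a, a core subunit of the factor that binds the small subunit (log2 fold change 0.14, edgeR adjusted p = 0.0308).

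Several of 16 other TOP mRNAs also stand in the lists of elongation, initiation or assembly factors, so these lists are not independent. Among the 16, 1 was higher and 0 were lower, with a median of 0.02. This was Pabpc1, the cytoplasmic poly(A)-binding protein, with 659, 658, 691 and 746 TPM in control and 775, 761, 732 and 786 TPM in cold libraries 1 to 4 (log2 fold change 0.13, edgeR with the block, adjusted p = 0.0190). Of 20 genes of RNA polymerase I and its factors, which make ribosomal RNA, 2 were higher (1.26% of all genes) and 0 lower (4.07% of all genes), with a median of 0.05, namely Taf1d at 0.18 (adjusted p = 0.0445) and Ubtf, the factor that opens the ribosomal RNA genes, also at 0.18 (edgeR with the block, adjusted p = 0.0109). In the unblocked fit none of these lists had a call.

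Of 62 ribosome assembly factors, 12 had an estimate below 0 in the blocked edgeR fit, where 46.9% of all genes did, and the median was 0.06 beside 0.01 over all genes. Of these factors 2 were higher (1.26% of all genes) and 1 was lower (4.07% of all genes). The largest change was that of Rrp12, an export factor of the small subunit, which fell from 44.1 ± 2.24 to 39.2 ± 1.1 TPM (log2 fold change −0.19, adjusted p = 0.0155), while the nucleolar proteins Ncl and Nolc1 were higher at 0.18 and 0.15 (edgeR with the block, adjusted p = 0.022 and 0.0372). Of 21 genes that regulate ribosome production (mTORC1, regulators of TOP mRNAs, Myc family genes and Maf1), 1 was higher, Myc, a transcription factor that drives ribosome production, with 71.7, 71, 80.2 and 79.5 TPM in control and 81.9, 79.4, 92.9 and 99.3 TPM in cold libraries (log2 fold change 0.21, edgeR with the block, adjusted p = 0.0104). Ubtf, Ncl and Nolc1 are named because of their values. Of the 10 SC and myoblast markers, 3 were lower in that fit (Cdh15, Itga7 and Myod1, where 4.07% of all genes were lower) and 1 was higher (Met, where 1.26% were higher), with Cdh15 changing most (log2 fold change −0.32, edgeR adjusted p = 1.19e-05), and their part in the values above was not tested. Without the block, 0 of these 8 genes of the assembly, regulator and marker lists were called (edgeR, adjusted p = 0.504 to 0.999).

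**Figure D5:**
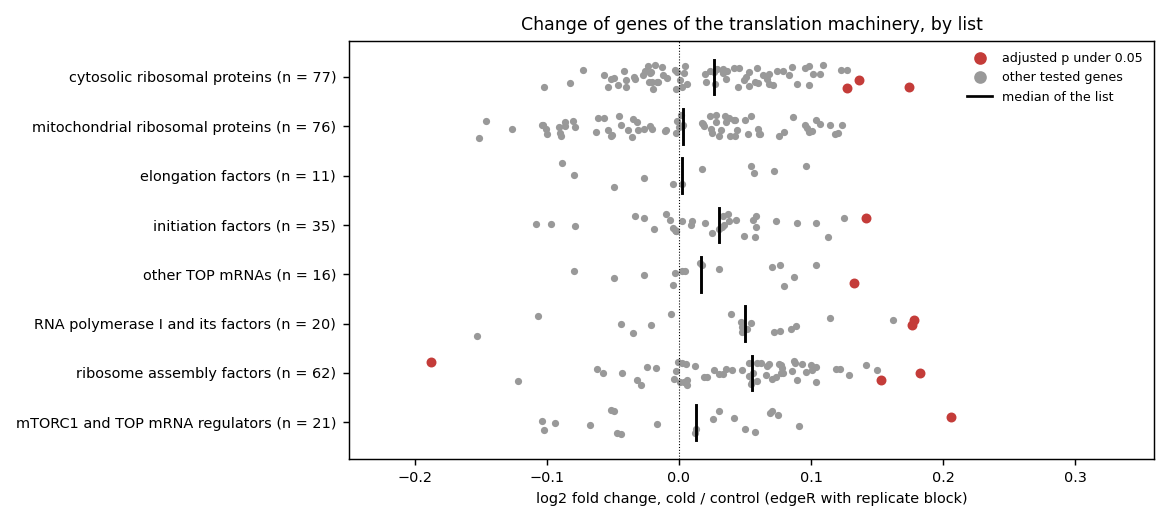
log2 fold change of cold against control (edgeR with replicate block) for each tested gene of the ribosomal protein set and of 7 other lists of the translation machinery. Some of these lists share genes. Red points have an adjusted p under 0.05 and black bars mark the median of each list, which lies between 0.00 and 0.06 in every list drawn.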

How the data were processed

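Per the labels, poly(A) RNA of 8 libraries was sequenced as paired 150 bp reads, and HISAT and HISAT2 are named without a version. The counting program, the genome build and how reads shared between genes were divided are not given in the sources used here. The authors deposited a table with expected counts per gene, estimated from the reads and not normalized, with TPM values scaled within each library, and with normalized counts, a signal made with a factor per library. All 80 members matched a RefSeq gene identifier with the same symbol (assembly BCM_Maur_2.0), used for names only.

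The members, gene lists and tests were chosen with earlier results of these data known. Expected counts were rounded, filtered with filterByExpr, scaled by TMM and tested with the quasi-likelihood F test of edgeR 4.0.16 in R 4.3.3, with Benjamini-Hochberg adjustment over the 12506 genes tested, and the procedure was tested on simulated counts. Counts between 16530747 and 18533801 per library set the precision, and limits on counts of 0 (3 counts) cover counting error only. Levels were compared by an exact two-sided permutation test over 70 arrangements of libraries. A count was taken as whole within 1e-06. Figures were drawn with matplotlib 3.10.9.

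Members named were the 6 with the highest TPM, the paralogs with their parents, the stalk proteins and Rpsa, the 8 highest and 8 lowest estimates without the block, 10 with a known regulatory or disease role or a place in late assembly, and those called. A few genes are not reported here by name and are left out of the figures that name genes, though they are in every count. Of other genes, Fau, Rack1 and the gene with the largest change in each list were named. Further genes were named outside this rule, among them cell type markers and members given for decimals, spread or direction. Not all of these are marked.

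The replicate numbers come from the titles. Over all genes, deviations from the group mean correlated at 0.64, 0.66, 0.68 and 0.68 between libraries that share a number across the groups, each over the limit of 0.1 set for pairing, so the numbers were taken as pairs. Libraries of different numbers correlated at 0.60 and 0.63 within replicates 1 and 2, at 0.48 and 0.44 within replicates 3 and 4, and between −0.57 and −0.63 otherwise, so these values separate replicates 1 and 2 from 3 and 4 more than they separate the numbers within each set. Over the members alone these correlations were −0.072, 0.15, 0.54 and −0.19. Alternatives were DESeq2 1.42.0, limma 3.58.1 on log2 TPM, other scalings and filters, the replicate block, members with whole counts, replicates 1 and 2 or 3 and 4 alone, and each library left out. The blocked fits on parts of the libraries or members or with RLE factors, and the comparisons of levels on the authors' normalized counts or without a library, were added after seeing the data.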

Additional observations from a re-analysis of the deposited data

Results flagged for a closer look

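Over the named members with any reads, the share of all members in the mRNA pool and the ratio of large to small subunit mRNA, 78 groups of 4 libraries were searched for a value that stands apart from the other 3, and 8 were found where chance gives about 1 in 20 groups, or 3.9. Rpl13a was at 4093 TPM in cold replicate 1 against 4351 to 4357 TPM in the other cold libraries. Rps25 was at 2675 TPM in the same library against 2876 to 2881 TPM. Rps14 was at 4555 TPM in control replicate 4 against 3846 to 3938 TPM, and at 3782 TPM in cold replicate 3 against 3972 to 3985 TPM. Rpl22l1 was at 690.05 TPM in cold replicate 3 against 727 to 731 TPM.

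The other 3 rest on a handful of reads. Rps27 was listed at 0.0 TPM in cold replicate 1 against 4.46 to 5.1 TPM. Rpl10l was listed at 0.1 TPM in control replicate 3 against 0.0 in the other controls, and at 0.0 TPM in cold replicate 3 against 0.05 in the other cold libraries.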

How the results depend on the processing

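No setting called a member past both thresholds. The number of higher members, 0 without a block, was 3 with the replicate block, where 1.26% of all genes were higher. This number was also 3 with the block and library totals (1.39%) or factors made without the members (1.3%). With the block, it stayed at 3 without paralogs and the genes not taken as ribosomal proteins (1.26%). It was 2 with DESeq2 and the block (0.283% of all genes), with RLE factors and the block (1.1%), and among members with whole counts and the block (1.26%), and 1 to 4 when a pair of libraries was left out of the blocked fit (0.128% to 2.56%). The number of lower members was then 0 to 2 (2.71% to 4.88% of all genes), with Rps2 and Rps12 lower and Rpl22, Rpl9, Rpl22l1 and Rpl32 higher without replicate 4. Without a block, 0 members were called when any of the 8 libraries was left out, where 0.0% to 0.357% of all genes were lower and 0.0% to 0.00794% higher. In replicates 1 and 2 alone 3 were higher and 4 lower without the block (4.73% and 6.85% of all genes), and 12 higher and 14 lower with it (7.72% and 9.43%), and in replicates 3 and 4 alone 7 were higher with the block (0.659%). The median log2 fold change was −0.02 in replicates 1 and 2 without (−0.01537) and with (−0.01518) the block, and −0.0118 to 0.0369 when a library was left out. Members below 0 were 13 of the 34 with whole counts in both fits, instead of 31 of 77 without and 30 of 77 with the block. Groups of TPM that do not overlap were found for 6 members (4.68% of all genes), for 1 on the authors' normalized counts (4.78%), and for 6 to 15 when a library was left out (5.96% to 10.3%), with 15 without control replicate 4 (10.3%), 12 without cold replicate 3 (7.43%), and 10 without control replicate 3 (8.16%) or cold replicate 1 (5.96%). Rps20 reversed to −0.09 (−0.09491) in replicates 1 and 2 with the block. Of 1050 estimates for named members, 83 had the other sign, 82 of them called neither way. The cause of these changes was not tested. Depth limits what can be said of Rps27, Rpl10l and Rpl3l, and the counts of 44 members had decimals whose origin was not tested.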
